A study of Mus musculus with 22 samples.

Results

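The comparison described here set the 5hmC of whole cerebellum (3 TAB-seq libraries) against that of whole olfactory bulb (3 TAB-seq libraries), both from C57BL/6 mice at 8 weeks of age. The members were chosen by rule as all autosomal bins of 1 Mb with a level above 0 in all 6 libraries, which gave 2413 of 2470 autosomal bins, out of 2641 bins in the series. The other 57 autosomal bins were listed at 0 in every library, and no bin was at 0 in only some of them. The methods give the mice as female and each replicate as a separate animal, but labels and methods both use the word technical for the replicates, so the p-values measure the spread between these libraries whatever its source. No group carried a treatment or an altered allele. Whole tissues were used, so each value averages over all cell types of the cerebellum or the bulb, and a different share of cells of a type cannot be told apart from a different level in each cell. The RNA-seq libraries were not analysed here, so the tissues were not checked against the expression of their marker genes. Cerebral cortex (3 TAB-seq libraries) served as a further tissue, and oxBS-seq libraries of cerebellum (2) and bulb (2) gave 5mC in the same bins.

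5hmC is made from 5mC, the methyl mark on the cytosine of CpG sites, by the TET dioxygenases (Tet1, Tet2 and Tet3). In the adult brain it is abundant in neurons and lies mainly in the bodies of genes that neurons use. Most cerebellar cells are granule neurons, a small glutamatergic neuron, beside Purkinje cells, interneurons and glia, whereas the olfactory bulb holds many GABAergic interneurons that are born in adult life, with mitral and tufted cells as its output neurons. In TAB-seq a glucose group shields 5hmC while 5mC is oxidized, and the later bisulfite step then leaves a C only where 5hmC stood.

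The deposited value of a bin is a fraction between 0 and 1 without a read count, so the depth behind it is unknown and the spread between libraries is the only error available. A bin is far wider than most genes, and its level is a single value for everything inside it. To show what such a bin is made of, the 200 bases at the middle of 4 bins with the largest changes were read from the plus strand of GRCm38, with each CpG in capitals. These are the bin of Fgf14 (largest rise in level, chr14:124499901-124500100), the bin beside Meis2 (largest fall in level, chr2:115499901-115500100), a bin with Esp genes (largest relative rise, chr17:39499901-39500100) and the bin of Pom121l12 (largest relative fall, chr11:14499901-14500100).
Fgf14 bin: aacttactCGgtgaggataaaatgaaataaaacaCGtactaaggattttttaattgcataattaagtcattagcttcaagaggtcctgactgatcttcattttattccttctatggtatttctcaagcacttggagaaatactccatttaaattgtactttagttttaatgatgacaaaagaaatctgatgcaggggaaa
Meis2 bin: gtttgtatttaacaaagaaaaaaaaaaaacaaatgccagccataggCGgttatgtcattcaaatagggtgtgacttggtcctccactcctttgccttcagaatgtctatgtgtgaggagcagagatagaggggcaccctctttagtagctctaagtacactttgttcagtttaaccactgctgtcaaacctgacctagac
Esp bin: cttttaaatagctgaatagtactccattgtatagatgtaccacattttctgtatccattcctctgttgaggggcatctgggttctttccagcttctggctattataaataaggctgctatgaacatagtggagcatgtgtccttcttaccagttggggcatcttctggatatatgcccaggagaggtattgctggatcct
Pom121l12 bin: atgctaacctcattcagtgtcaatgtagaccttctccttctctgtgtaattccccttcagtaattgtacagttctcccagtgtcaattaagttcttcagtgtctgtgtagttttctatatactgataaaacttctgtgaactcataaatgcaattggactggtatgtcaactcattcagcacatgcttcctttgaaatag
The 4 windows held 2, 1, 0 and 0 CpG sites. The whole bins held 3719, 7184, 5615 and 4419 CpG sites, or 0.927, 1.44, 1.12 and 0.884 per 200 bases. The level of a bin therefore rests on sparse sites spread over its whole length.

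Cerebellum carried less 5hmC than olfactory bulb in nearly the whole autosomal genome, with a mean level of 0.0987 ± 0.00183 (SD, n = 3) against 0.150 ± 0.00440 (SD, n = 3). The cerebellar libraries had mean levels of 0.0978, 0.0974 and 0.101, and the bulb libraries 0.147, 0.155 and 0.148. No library of either tissue reached the range of the other, and cerebellum stood at 65.7% of bulb. The two-sided exact permutation test gave p = 0.1, and no smaller p can be reached with 3 libraries a tissue. The medians over bins, which are the reference points for the relative changes given later, were 0.0972 ± 0.00198 in cerebellum and 0.156 ± 0.00471 in bulb (SD, n = 3 each). Cortex had a mean level of 0.169 ± 0.00980 (SD, n = 3), above both.

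The fall was not an even scaling of all bins. Cerebellum was at a median of 64.7% of bulb per bin, with 37.5% at the 5th percentile and 96.0% at the 95th, and the range ran from 24.1% to 256%. As a difference of levels, the median bin was lower by 0.0518 (cerebellum minus bulb -0.0518), with -0.0998 at the 5th percentile, -0.00401 at the 95th, and extremes of -0.167 and 0.0787. Cerebellum was under 25% of bulb in 4 bins, from 25 to 50% in 538, from 50 to 75% in 1157, from 75 to 100% in 637, and at 100% or more in 77. The bins differed in gene content along this order. The median bin at 25 to 50% of bulb had 26.6% of its length covered by genes and held 2 protein-coding genes, whereas the median bin at 75 to 100% had 63.3% covered and held 11. The 77 bins at 100% or more were covered by genes over a median of 61.6%, with 7 protein-coding genes.

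**Figure D1:**
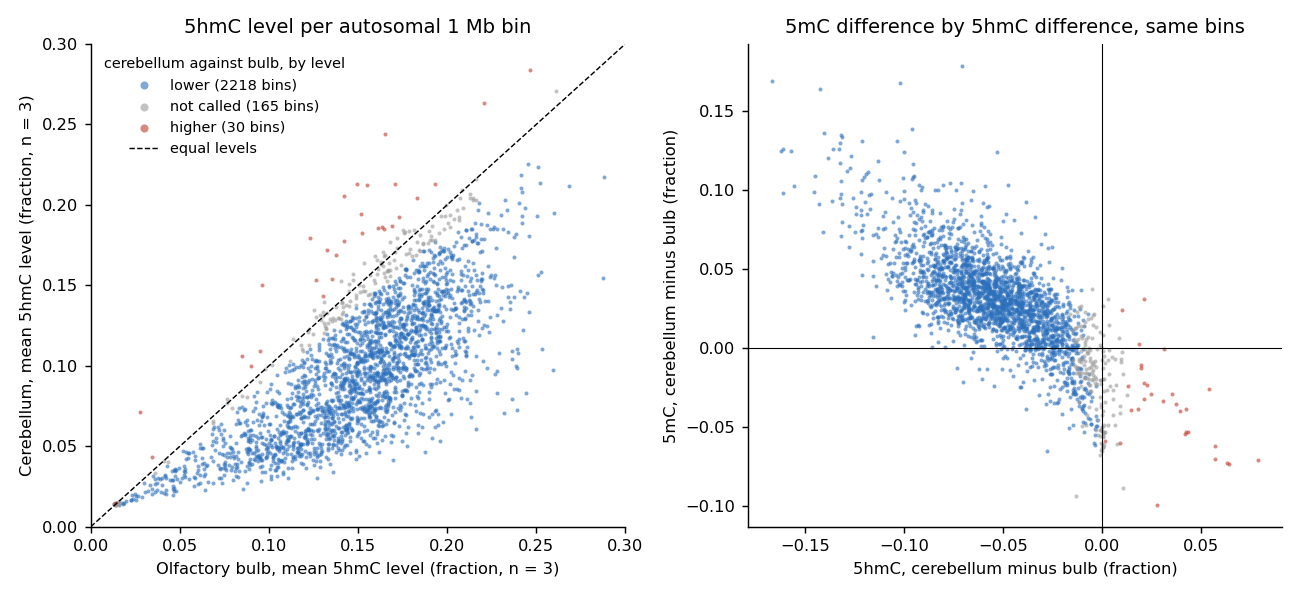
Left, mean 5hmC level (fraction) of each of the 2413 bins in cerebellum (y axis) against olfactory bulb (x axis), 1 point per bin, coloured by the limma call on the level, with the dashed line at equal levels. Most points lie under the line, and 30 bins called higher in cerebellum lie above it. Right, cerebellum minus bulb difference of 5mC (y axis, fraction, 2 libraries a tissue) against that of 5hmC (x axis, fraction) in the same bins and colours, where bins with larger falls of 5hmC have larger rises of 5mC.

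Each bin was tested with limma, fitted to all 9 TAB-seq libraries on log2(level/(1 − level)) with Benjamini-Hochberg adjustment over 2581 bins (X included) and a threshold of 0.05. By level, 2218 of the 2413 bins were lower in cerebellum and 30 were higher, and 165 did not pass. Over all bins tested the shares called were 93% in either direction, 91.8% lower and 1.2% higher. The 3 cerebellar libraries were all below the 3 bulb libraries in 2246 of the 2413 bins and all above them in 33. Over the 2581 bins tested these shares were 92.6% and 1.39%. The standard error of this fit was 0.0732 in every bin, so a bin with a wide spread between libraries was judged with the same error as a tight bin.

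Because the library medians differ, each level was also divided by the median of its own library over the autosomal bins, and the log2 of that ratio was tested in the same way. Dividing by the median fixes the middle of each library, so changes in both directions are built into this scale. The bins were split, with 1200 higher and 997 lower in cerebellum, and 216 that did not pass. The shares over all bins tested were 90.2% in either direction, 48.8% higher and 41.4% lower. All cerebellar libraries were above all bulb libraries in 1187 of the 2413 bins and below them in 986, against 48.2% and 40.8% of the 2581 bins tested. The relative change ran from -1.38 to 1.89 on the log2 scale, with a median of 0.05 and an SD of 0.42 over bins. Each relative call was compared with the call by level. Of the 2218 bins lower by level, 997 were also lower relative to the median, 1005 were higher, and 216 did not pass. The 30 bins higher by level and the 165 bins without a call by level were all higher on the relative scale. The pattern over bins was alike between libraries, since 3 separate pairs of a cerebellar and a bulb library gave profiles of relative change with Pearson's r of 0.977, 0.973 and 0.985 to each other over the 2413 bins.

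**Figure D2:**
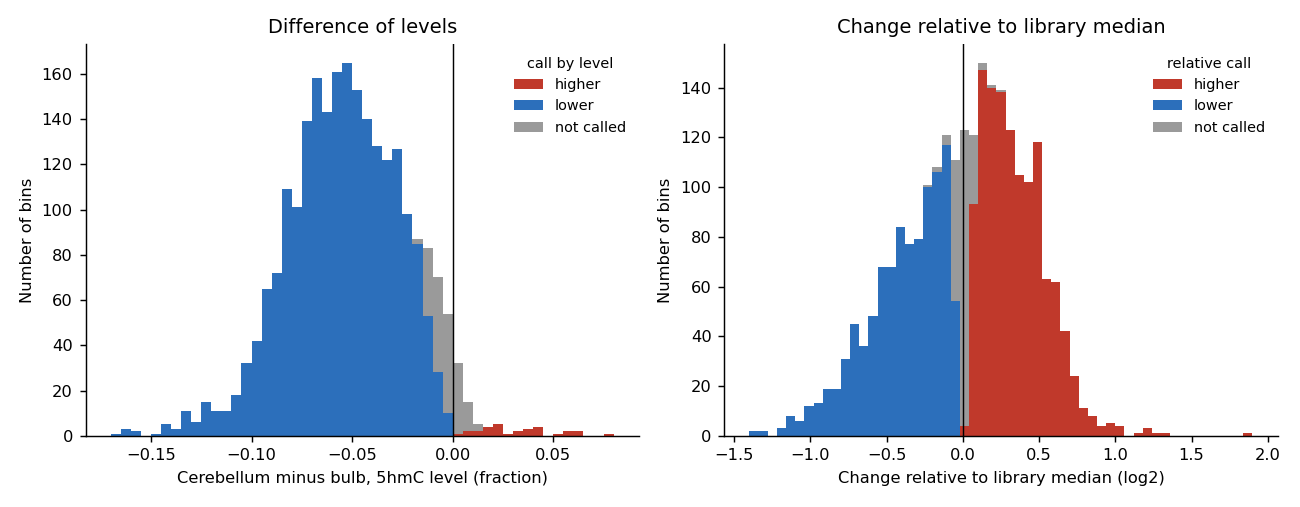
Number of bins (y axis) by cerebellum minus bulb difference of 5hmC level (left, fraction) and by change relative to the library median (right, log2), with bins coloured by the limma call on each scale and a line at 0. Of the 2413 bins, 2218 were lower by level, whereas the relative changes fall on both sides of 0, with 1200 bins higher and 997 lower.

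The distances between low and high bins were also larger in cerebellum, relative to its own level. The coefficient of variation over bins was 43.3% ± 0.575 in cerebellum, 30.0% ± 0.973 in bulb and 23.9% ± 0.386 in cortex (SD, n = 3 each). The SD of log2(level/median) over bins was 0.74 ± 0.023 against 0.62 ± 0.027 (SD, n = 3), and its interquartile range was 0.97 ± 0.0097 against 0.54 ± 0.023. On the fraction scale the SD went the other way, at 0.0427 ± 0.000767 in cerebellum and 0.0451 ± 0.00122 in bulb, while the interquartile range was 0.0632 ± 0.00122 against 0.0567 ± 0.00188. Each of these 5 measures separated the libraries of cerebellum and bulb without overlap, with p = 0.1 in the exact permutation test (two-sided), the smallest possible p. The levels of the 2 tissues had r = 0.760 over the 2413 bins, against 0.930 for bulb and cortex and 0.774 for cerebellum and cortex, as a description over bins that share libraries.

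The 5 largest rises of 5hmC level in cerebellum were in the bins of Fgf14, Caln1, Rims1, Zfp521 and Cadps2. The largest rise in level was in the last bin of chromosome 14 (chr14:124000001-124902244), where Fgf14, an intracellular regulator of voltage-gated sodium channels, takes up 677 kb. Its cerebellar levels were 0.249, 0.238 and 0.244, and its bulb levels 0.159, 0.170 and 0.166. The difference of the means was 0.0787, and cortex was at 0.177 ± 0.0174 (SD, n = 3), so cerebellum lay above both tissues in every library. At chr5:130000001-131000000, which holds Caln1 (a neuronal calcium-binding protein), Galnt17 and Tyw1, the levels were 0.208, 0.216 and 0.216 in cerebellum and 0.149, 0.153 and 0.146 in bulb. At chr1:22000001-23000000, with Rims1, which builds the presynaptic active zone, they were 0.205 ± 0.00502 in cerebellum and 0.142 ± 0.00320 in bulb (SD, n = 3). The bin of the zinc finger transcription factor gene Zfp521, with Hrh4 (chr18:13000001-14000000), had levels of 0.218, 0.207 and 0.211 in cerebellum and 0.150, 0.161 and 0.154 in bulb. In the bin of Cadps2, a gene for a protein of dense-core vesicle release, with Aass and Ptprz1 (chr6:23000001-24000000), they were 0.177, 0.182 and 0.180 against 0.121, 0.126 and 0.122. In these 5 bins cerebellum stood at 137% to 148% of bulb, with no overlap between libraries. In limma the adjusted p ranged from 1.29e-21 for Fgf14 to 6.95e-14 for Zfp521.

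Other bins of the 30 called higher by level are named by their leading gene, chosen after their values were seen. They included the bins of Rbfox1 (0.263 ± 0.00450 against 0.221 ± 0.00497), Car10 (0.213 ± 0.00121 against 0.171 ± 0.00485), Unc13c (0.172 ± 0.00103 against 0.133 ± 0.00473) and Grik2 (0.204 ± 0.00242 against 0.183 ± 0.00371), given as cerebellum against bulb (SD, n = 3). The bin of Gabrb2 and Gabra6, which encode GABA-A receptor subunits, was at 0.177 ± 0.00248 against 0.142 ± 0.00556, and that of Reln at 0.183 ± 0.00355 against 0.152 ± 0.00481 (SD, n = 3). In 23 of the 30 bins all cortex libraries were also above all bulb libraries, and in 8 all cerebellar libraries were above all cortex libraries. Over all 2413 bins these counts were 1622 and 10. The median level of the 30 bins was 0.184 in cerebellum, 0.180 in cortex and 0.146 in bulb. Not all of the 30 were tight, since cerebellum and bulb libraries overlapped in 3 of them. These were the Esp bin of chromosome 17, an intergenic bin of chromosome 6 at 0.0997 ± 0.00418 against 0.0898 ± 0.00931, and the Nlrp9b bin of chromosome 7 at 0.0150 ± 0.00180 against 0.0137 ± 0.00259 (SD, n = 3), where cerebellum and bulb differed by less than the spread between libraries.

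The 5 largest falls in level were in bins that hold BC052040 and part of Meis2, Tenm4, Tenm3, Robo2, and Fxr1 with Sox2. At chr2:115000001-116000000, with BC052040 and the 3′ part of Meis2, a homeobox factor of olfactory bulb interneurons, the cerebellar levels were 0.0717, 0.0722 and 0.0747 and the bulb levels 0.242, 0.245 and 0.232. At chr7:96000001-97000000, with the teneurin gene Tenm4 and Nars2, they were 0.0972, 0.0957 and 0.0988 against 0.261, 0.265 and 0.253. Another teneurin gene, Tenm3, with Dctd (chr8:48000001-49000000), had 0.0694, 0.0704 and 0.0731 against 0.234, 0.236 and 0.226. Teneurins are transmembrane proteins that match synaptic partners. At chr16:74000001-75000000, which holds Robo2, a receptor for the guidance cue Slit, the levels were 0.0820, 0.0834 and 0.0839 in cerebellum and 0.245, 0.249 and 0.239 in bulb. At chr3:34000001-35000000, with Fxr1, Dnajc19 and the neural stem cell factor Sox2, which covers 2 kb of the bin, they were 0.0771, 0.0804 and 0.0808 against 0.234, 0.241 and 0.235. In these 5 bins cerebellum stood at 30.4% to 37.5% of bulb, and the bulb levels, between 0.226 and 0.265 in every library, were also above each bin's cortex mean of 0.187 to 0.225. Of the 30 bins with the largest falls, 19 had all cortex libraries below all bulb libraries, and in all 30 cortex was above cerebellum in every library. Over all 2413 bins these counts were 84 and 2352, so cortex above cerebellum was the general case.

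**Figure D3:**
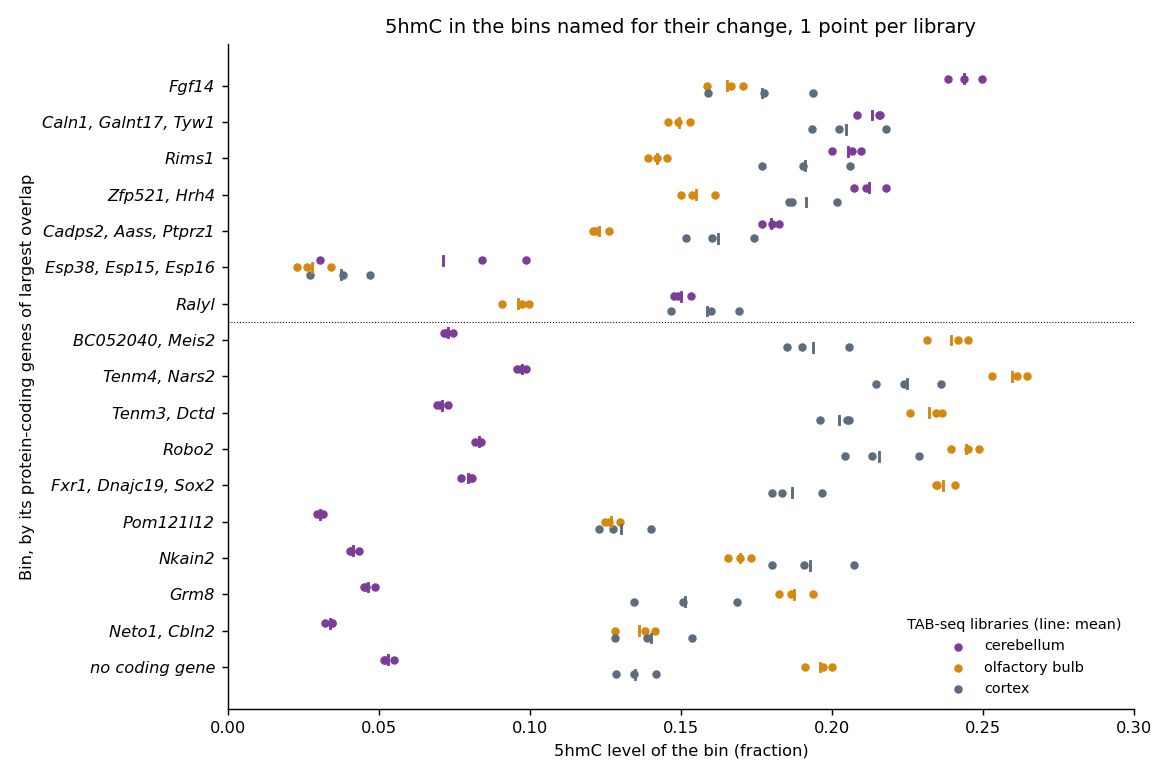
5hmC level (x axis, fraction) of each bin named for its change (y axis, by its protein-coding genes), with 1 point per TAB-seq library and a line at the tissue mean, for cerebellum, olfactory bulb and cortex. Above the dotted line are bins higher in cerebellum and under it bins that were lower. Replicates lie close together except for the Esp38, Esp15 and Esp16 bin, where the cerebellar libraries range from 0.0306 to 0.0988.

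Relative to the library median, the order of the bins changed. The largest relative rise, 1.89 ± 0.41 (SE) on the log2 scale, was at chr17:39000001-40000000, where genes of exocrine-gland secreted peptides (Esp38, Esp15 and Esp16) lie in a bin with only 4.94% of gene cover. This value rested on cerebellar replicates 2 and 3. The cerebellar levels were 0.0306, 0.0840 and 0.0988, and the bulb levels 0.0342, 0.0263 and 0.0229, so the first cerebellar library lay among the bulb libraries by level. Its adjusted p was 0.00178 in limma, and leaving out single libraries moved the change between 1.59 and 2.41. The next bin, chr3:13000001-14000000 with Ralyl (an RNA-binding protein gene), was tight, with 0.153, 0.148 and 0.149 in cerebellum and 0.0907, 0.0997 and 0.0974 in bulb, a relative change of 1.32 ± 0.033 (SE, adjusted p = 1.10e-09). The bins of Fgf14 (1.24 ± 0.036), Cadps2 (1.23 ± 0.021) and Rims1 (1.21 ± 0.025, SE) followed.

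The largest relative falls were in bins with at most 2 protein-coding genes. At chr11:14000001-15000000, where Pom121l12 is the only protein-coding gene, the levels were 0.0294, 0.0314 and 0.0309 in cerebellum and 0.125, 0.130 and 0.126 in bulb, which is 24.1% of bulb and a relative change of -1.38 ± 0.026 (SE, limma adjusted p = 5.26e-10). At chr10:32000001-33000000, with Nkain2 (whose product binds the sodium pump), they were 0.0404, 0.0409 and 0.0434 against 0.165, 0.173 and 0.170. At chr6:27000001-28000000, with the metabotropic glutamate receptor gene Grm8, they were 0.0458, 0.0450 and 0.0487 against 0.186, 0.194 and 0.182. Grm8 and Nkain2 thus had bulb means above the bulb median, while cerebellum stood at 24.8% and 24.5% of bulb. The bin of Neto1, an auxiliary subunit of glutamate receptors, and Cbln2 (chr18:86000001-87000000) had 0.0322, 0.0346 and 0.0347 against 0.128, 0.141 and 0.138. With Pom121l12, these are the 4 bins under 25% of bulb. The bin at chr8:50000001-51000000, which overlaps no protein-coding gene, was at 0.0530 ± 0.00184 against 0.196 ± 0.00451 (SD, n = 3). The relative changes of these 5 bins lay between -1.38 and -1.21, and no libraries overlapped. A low number of genes was not particular to these falls. Among the 5 largest relative rises, the bins of Ralyl, Fgf14 and Rims1 held 1 protein-coding gene each, and those of Cadps2 and Esp38 held 7 and 8.

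Changes were shared between neighbouring bins, mostly over short distances. Pearson's r of the relative change between adjacent bins was 0.427 over 2394 pairs, and it was 0.217 at a distance of 2 Mb, 0.114 at 5 Mb, 0.0730 at 10 Mb and 0.0297 at 20 Mb. Computed in 3 separate pairs of libraries, the value for adjacent bins was 0.414, 0.419 and 0.434. Adjacent bins had the same sign of relative change in 65.3% of pairs, against 50.6% at 20 Mb. The median step between adjacent bins was 0.28 on the log2 scale, so sharp edges were common. The Fgf14 bin, for example, was next to a bin with Nalcn and Itgbl1 at 0.0953 in cerebellum and 0.159 in bulb, with a relative change of -0.05 that did not pass (limma adjusted p = 0.174). The bins before and after the Cadps2 bin had relative changes of -0.31 and 0.48. The Caln1 bin (1.20) was followed by 2 bins of Auts2 at 0.26 and 0.27, which were lower by level. Falls were sometimes wider. The Tenm3 bin was followed by 2 bins without protein-coding genes at 0.0605 and 0.0530 in cerebellum against 0.216 and 0.196 in bulb, and the 2 bins before Tenm4, also without such genes, stood at 0.0418 and 0.0462 against 0.149 and 0.162.

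**Figure D4:**
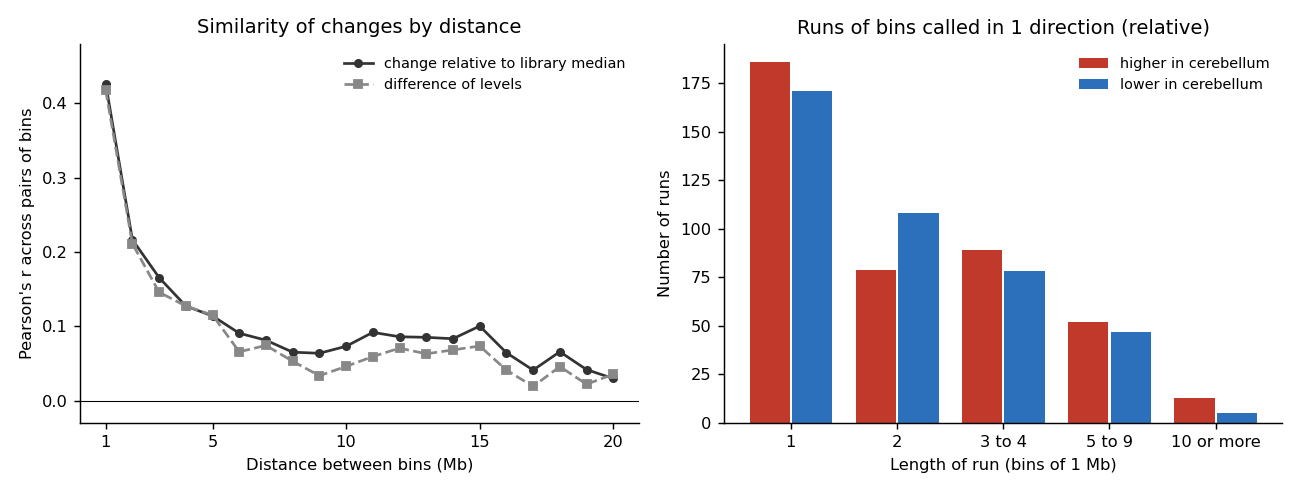
Left, Pearson's r across pairs of bins (y axis) by their distance (x axis, Mb), for the relative change and for the difference of levels. Right, number of runs of adjacent bins called in the same direction on the relative scale (y axis) by length of run (x axis, bins of 1 Mb). The r falls from 0.427 in adjacent bins to 0.0297 at 20 Mb, and runs of 10 or more bins number 13 for higher and 5 for lower.

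As runs of adjacent bins called in the same direction on the relative scale, the 1200 higher bins formed 419 runs and the 997 lower bins 409 runs, with a median length of 2 bins for both. Runs of at least 5 bins held 46.2% of the higher bins and 34.6% of the lower bins. The longest run of higher bins covered 32 Mb of chromosome 7 (chr7:4000001-36000000) with 727 protein-coding genes, among them Usp29, Samd4b, Sipa1l3 and the oocyte homeobox genes Obox1 and Obox3. Its levels were low in both tissues, at 0.0524 ± 0.00147 in cerebellum and 0.0643 ± 0.00325 in bulb (SD, n = 3), and 17 of its 32 bins were lower by level. The part of TAB-seq background in such low levels was not tested. The next was chr4:126000001-153000000, 27 bins with Camta1, Csmd2 and Rere, at 0.134 ± 0.00280 against 0.157 ± 0.00439. After it came chr17:17000001-40000000, 23 bins with Btbd9, Dnah8 and Zfand3, at 0.0869 ± 0.00326 against 0.104 ± 0.00368 (SD, n = 3). It ends with the Esp bin described above.

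Runs of lower bins were poorer in genes. The longest was chr3:32000001-51000000, 19 bins with 60 protein-coding genes, among them Slc7a11, Kcnmb2 and Pex5l, at 0.0650 ± 0.00188 in cerebellum and 0.146 ± 0.00443 in bulb. It includes the Sox2 bin. The run chr15:9000001-22000000 had 13 bins with the cadherin genes Cdh12 and Cdh10, at 0.0587 ± 0.00135 against 0.124 ± 0.00479. The run chr1:94000001-105000000 had 11 bins with Cntnap5b and Cdh20, at 0.0459 ± 0.000777 against 0.104 ± 0.00454 (SD, n = 3 each). Genes covered 26.2%, 35.9% and 24.6% of these 3 runs, against 43.2%, 60.3% and 54.0% of the 3 runs of higher bins. Whole chromosomes differed less than runs. The mean relative change was highest on chromosome 7 (0.15 ± 0.016 SE, 98 of 143 bins higher) and lowest on chromosome 3 (-0.13 ± 0.0092 SE, 85 of 157 bins lower).

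Gene cover and base composition, which come from the annotation and the sequence and not from the levels, were set against the change. The bins were split into 5 equal groups by rank. In the group with the least gene cover, cerebellum was at 0.0592 ± 0.00128 and bulb at 0.116 ± 0.00449, or 51.2% of bulb, and 19.3% of these bins were higher on the relative scale. In the group with the most, cerebellum was at 0.130 ± 0.00236 and bulb at 0.178 ± 0.00455 (SD, n = 3 each), or 72.7% of bulb, and 68.7% of the bins were higher. Per library, the log2 relative level of the most covered group minus that of the least covered was 1.18 ± 0.026 in cerebellum and 0.72 ± 0.039 in bulb (SD, n = 3), a difference of 0.46 ± 0.027 (SE). As fractions, the same contrast was 0.0704 ± 0.00135 against 0.0626 ± 0.00225. No library overlapped on either scale (exact permutation test, p = 0.1, the smallest possible). By GC content, cerebellum was at 52.9% of bulb in the lowest group and at 78.3% in the highest. Gene cover and GC content had r = 0.497 with each other over the bins, and their parts were not separated here.

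The bins were also ranked by cortex 5hmC, which neither group of the comparison contributed to. In the group with the lowest cortex levels, cerebellum was at 0.0483 ± 0.00135 and bulb at 0.0840 ± 0.00415, and in the group with the highest, at 0.144 ± 0.00253 and 0.1999 ± 0.00494 (SD, n = 3 each). The share of bulb thus went from 57.5% to 71.9%, while the difference of levels went from -0.0357 to -0.0563. The contrast of the highest and the lowest group was larger in cerebellum on the log2 relative scale (by 0.27 ± 0.044, SE) and smaller on the fraction scale (-0.0205 ± 0.00227, SE), each with p = 0.1 in the exact permutation test. The direction of this comparison thus depended on the scale.

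5mC in the same bins came from other libraries (2 of each tissue) and was not used to choose the bins. Its cerebellum minus bulb difference had a median of 0.0282, with -0.0278 at the 5th percentile and 0.0771 at the 95th. By limma, 1284 bins were higher in 5mC in cerebellum and 123 were lower (over all bins tested, 57.1% in either direction, 49.8% higher and 7.36% lower). These counts depended on single libraries. Without bulb replicate 1 or 2 or cerebellum replicate 1, the bins called numbered 888, 768 and 699 in place of 1407, and without cerebellum replicate 2 the bins lower numbered 63. Over the 2413 bins, the differences of 5mC and 5hmC had r = -0.769 (Spearman's rho -0.740) with a slope of -0.801, given as a description of values from separate libraries of the same tissues.

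The named bins differed in how closely the changes of 5mC and 5hmC matched in size. In the Fgf14 bin, 5mC was 0.671 and 0.663 in the cerebellar libraries and 0.746 and 0.730 in the bulb libraries. In the Meis2 bin it was 0.782 and 0.766 against 0.606 and 0.605, a difference of 0.169, close in size to the 5hmC difference of -0.167. In the Pom121l12 bin the 5mC difference was smaller, at 0.0273, while 5hmC differed by -0.0964. Of the 30 bins higher in 5hmC by level, 27 had a lower mean 5mC in cerebellum and 21 of them passed the test. The other 3 had a higher mean 5mC, and 2 of them were called higher. The 30 bins with the largest falls of 5hmC were all called higher in 5mC. Among all 2413 bins, mean 5mC was lower in cerebellum in 374, of which 123 were called lower. It was higher in 2039, of which 1284 were called higher, so a higher 5mC was the general case.

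Genes were given the level of the bins they lie in, weighted by overlap, so genes that share a bin share its value and short genes carry the level of their surroundings. Among 20807 autosomal protein-coding genes, limma called 14810 higher and 4342 lower on the relative scale (92% in either direction, 71.2% higher and 20.9% lower), with a median change of 0.25. The median over genes was above that over bins because the relative change was higher in bins with many genes, and any list should be read against it. By level, 832 genes had a higher mean in cerebellum than in bulb.

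Long genes were split. Of the 218 genes of at least 500 kb, 99 were higher and 101 lower on the relative scale, with a median of -0.02, whereas of the 20589 shorter genes 14711 were higher and 4241 lower, with a median of 0.25. The long genes lie in 215 main bins, whereas the shorter genes share 2052, so bins with many genes weigh more among the shorter genes. Over the 2413 bins, 49.7% were higher and 41.3% lower, with a median of 0.05. The long genes, with 45.4% higher and 46.3% lower, were thus nearer to the bins than to the shorter genes. The median long gene was at 0.108 in cerebellum and 0.179 in bulb, and the median shorter gene at 0.109 and 0.151. Among long genes, large rises were found in Cadps2 (1.23), Fgf14 (1.22), Rims1 (1.21), Ralyl (1.10), Car10 (1.00), Astn2 (0.87) and Grik2 (0.84). Astn2 guides the migration of neurons along glia, and Grik2 is a kainate receptor subunit. The largest falls were in Tenm3 (-1.03), Nkain2 (-1.02), the leucine-rich synaptic adhesion gene Lrrtm4 (-0.96), the ephrin receptor Epha6 (-0.94), 5730522E02Rik (-0.93), Grm8 (-0.89), Robo2 (-0.82) and Mdga2 (-0.82). The standard errors of these changes were at most 0.035. For the Car10 gene the levels were 0.212, 0.214 and 0.212 in cerebellum against 0.167, 0.176 and 0.169 in bulb, and for Lrrtm4 0.0619 ± 0.00192 against 0.193 ± 0.00782 (SD, n = 3).

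Genes known as markers of the cells of each tissue were then read from this fit, in which 71.2% of all genes were higher and 20.9% lower. Of the 14 genes of the cerebellar granule neuron list, 13 were higher on the relative scale, none was lower, and Etv1 did not pass, with a median of 0.57 against 0.25 for all genes. By level, 3 of them were above bulb: Gabra6, a GABA-A receptor subunit of granule cells, Cbln1, a synaptic organizer that granule cells release, and the metabotropic receptor gene Grm4. Gabra6 was at 0.177, 0.175 and 0.180 in cerebellum and 0.137, 0.148 and 0.142 in bulb, a relative change of 1.00 ± 0.024 (SE). Cbln1 was at 0.180, 0.186 and 0.189 against 0.162, 0.168 and 0.163, a relative change of 0.85 ± 0.017. Grm4 was at 0.195, 0.199 and 0.206 against 0.198, 0.208 and 0.193, so its libraries overlapped by level, with a relative change of 0.68 ± 0.020. Kcnd2 (0.66), Zic1 (0.64), Chn2 (0.61), Fat2 (0.59), Zic2 (0.56), Barhl1 (0.52), Cbln3 (0.45) and Neurod2 (0.44) were higher relative to the median but had a lower mean level. Pax6 (0.26) and Neurod1 (0.07), also transcription factor genes, had smaller changes, and Etv1 was at -0.01 ± 0.023 (adjusted p = 0.612 in limma). The value of Gabra6 is that of the bin it shares with Gabrb2, and it also enters the GABA-A receptor list.

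The Purkinje cell list was mixed, with 9 of 14 genes higher, 3 lower and 2 that did not pass, and a median of 0.39. These shares, 64.3% higher and 21.4% lower, stood beside 71.2% and 20.9% over all genes. Cacna1a, the P/Q-type calcium channel, was at 0.159, 0.161 and 0.171 against 0.153, 0.156 and 0.150 (relative change 0.78 ± 0.019, SE). Slc1a6 (0.58), Rora (0.57), Pcp2 (0.50), Ppp1r17 (0.50), Car8 (0.46), Lhx1 (0.32) and Skor2 (0.20) were also higher. Foxp2 was lower, at 0.0516, 0.0525 and 0.0545 in cerebellum against 0.141, 0.151 and 0.142 in bulb (-0.77 ± 0.016), as was the calcium release channel Itpr1 (-0.09). Calb1 (-0.02) and Pcp4 (-0.02) did not pass.

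Of the 14 genes of the olfactory bulb interneuron list, 11 were lower on the relative scale and 3 were higher, with a median of -0.26, and all 14 had a lower mean level in cerebellum. Among all genes 20.9% were lower and 71.2% higher on the relative scale. The lower genes of the list included the homeobox genes Meis2, Dlx1, Dlx2, Dlx5 and Dlx6 and the GABA synthesis genes Gad1 and Gad2. Meis2 was at 0.0661, 0.0656 and 0.0686 in cerebellum and 0.216, 0.220 and 0.208 in bulb (relative change -1.01 ± 0.017, SE). Dlx5 and Dlx6, which lie in 1 bin, were at 0.0779, 0.0785 and 0.0810 against 0.201, 0.206 and 0.196 (-0.67 ± 0.017). Gad1 was at 0.0941, 0.0940 and 0.0941 against 0.199, 0.207 and 0.204 (-0.43 ± 0.020), and Gad2 at 0.0566, 0.0623 and 0.0610 against 0.131, 0.143 and 0.135 (-0.51 ± 0.038). Sp8 (-0.42), Dlx1 and Dlx2 (-0.26 in their shared bin), Synpr (-0.23), Tshz1 (-0.15) and the vesicular GABA transporter Slc32a1 (-0.07) were also lower. The higher genes were Th (0.47), the rate-limiting enzyme of dopamine synthesis, Calb2 (0.37) and Pbx3 (0.16). Markers of mitral and tufted cells, the other neurons of the bulb, did not share this direction but were near the share over all genes. Of these 8 genes 6 (75%) were higher, with a median of 0.32, against 71.2% and 0.25 for all genes. They ran from Reln (0.77) and Slc17a7 (0.47) to Tbr1 (-0.11) and Nrp1 (-0.23).

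**Figure D5:**
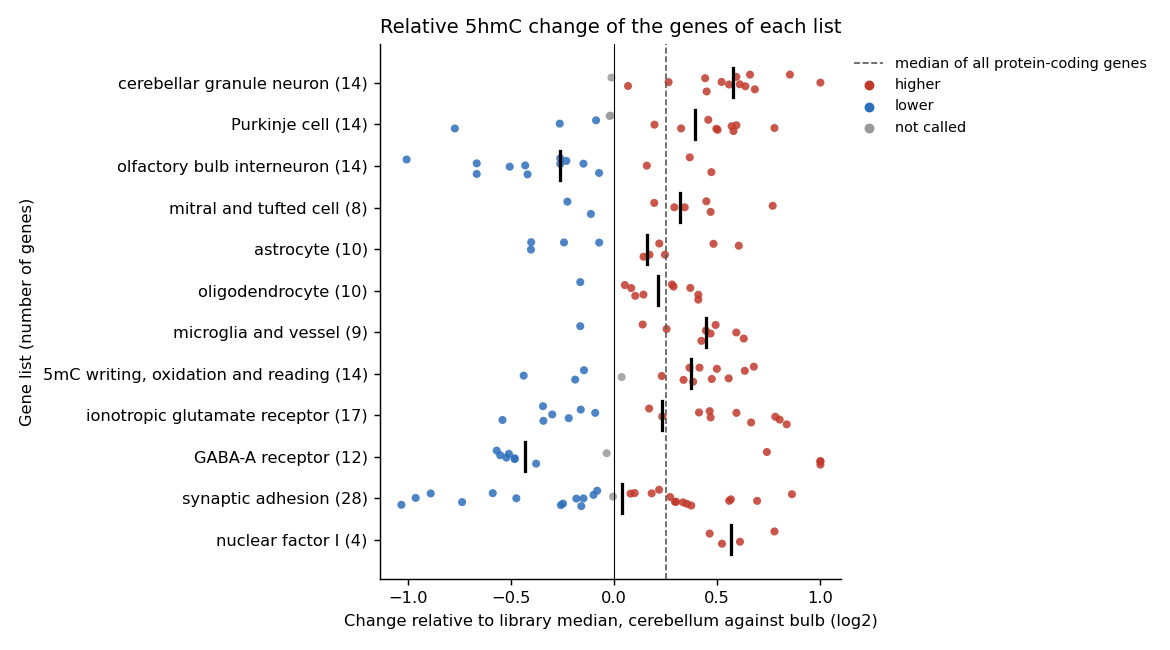
Change relative to the library median (x axis, log2, cerebellum against bulb) of each gene (1 point) in 12 lists (y axis, with the number of genes), coloured by the limma call, with a black line at the list's median and a dashed line at 0.25, the median of all protein-coding genes. The granule neuron list has 13 of 14 genes higher and the bulb interneuron list 11 of 14 lower, against 71.2% higher and 20.9% lower of all genes. Points of genes in the same bin have the same value.

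Glial and vascular lists had medians on both sides of that of all genes, of which 71.2% were higher and 20.9% lower. Astrocyte markers had 6 of 10 genes higher and 4 lower (median 0.16), from Aldh1l1 (0.60) and Gfap (0.48) to Sox9 (-0.40) and Aqp4 (-0.40). Oligodendrocyte markers had 9 of 10 higher (median 0.21), with Olig1 and Olig2 at 0.41 in their shared bin, Opalin at 0.05 and Pdgfra, a gene of their precursors, lower at -0.16. Microglia and vessel markers had 8 of 9 higher (median 0.44), from Flt1 (0.63) and Tmem119 (0.59) to Cx3cr1 (0.14) and Kdr (-0.16, in the bin of Pdgfra). All 29 of these genes had a lower mean level in cerebellum.

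Among 14 genes listed as linked to the writing, oxidation or reading of 5mC, 10 were higher relative to the median and 3 were lower. Idh1 (0.04) did not pass, and the median was 0.37. These shares of 71.4% higher and 21.4% lower were about those of all genes, 71.2% and 20.9%. Among the TET genes, Tet1 was at 0.124, 0.131 and 0.131 in cerebellum against 0.137, 0.144 and 0.141 in bulb (relative change 0.56 ± 0.023, SE), and Tet3 at 0.123, 0.128 and 0.129 against 0.140, 0.148 and 0.142 (0.50 ± 0.023). Tet2 went the other way, at 0.0754, 0.0788 and 0.0814 against 0.136, 0.145 and 0.137 (-0.15 ± 0.019). The methyltransferase genes Dnmt3b (0.63), Dnmt3a (0.37) and Dnmt1 (0.34), with Uhrf1 (0.47), were higher. So were Mbd3 (0.68), Idh2 (0.41), Mbd4 (0.38) and Tdg (0.23), while the readers Mbd1 (-0.19) and Mbd2 (-0.44) were lower.

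Receptor genes went in both directions, where 71.2% of all genes were higher and 20.9% lower. Of 17 ionotropic glutamate receptor genes 10 were higher and 7 lower (median 0.23), with Grik2 (0.84) and Grin2c (0.80) at the top and Grin2b (-0.34) and Gria1 (-0.54) at the bottom. Grin2c and Grin2b encode alternative NMDA receptor subunits, but the value of Grin2c is that of a bin that is the main bin of 43 genes. Gria1 was at 0.0920, 0.0903 and 0.0917 in cerebellum against 0.212, 0.217 and 0.210 in bulb. Of 12 GABA-A receptor genes, which lie in only 6 main bins, 4 were higher, 7 were lower and 1 did not pass (median -0.43). The higher genes included Gabra6 and Gabrb2 (1.00 in their shared bin) and Gabrd (0.74), and the lowest were Gabrg1 (-0.57) and Gabrg3 (-0.55). Synaptic adhesion genes were spread evenly, with 14 of 28 higher and 13 lower (median 0.04), among them Nrxn2 (0.69), Cntn2 (0.57), Lrrtm4 (-0.96) and Tenm3 (-1.03). All 4 nuclear factor I genes, transcription factors of granule neuron maturation, were higher, with Nfix at 0.78, Nfia at 0.61, Nfic at 0.52 and Nfib at 0.46. The value of Nfix is that of the bin it shares with Cacna1a of the Purkinje cell list.

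Of the large gene families, the chemoreceptors had the lowest levels in both tissues. The shares to set beside the counts below are those of all genes, 71.2% higher and 20.9% lower. The 1128 olfactory receptor genes, in 82 main bins, had a median level of 0.0326 in cerebellum and 0.0549 in bulb, with 545 higher and 339 lower on the relative scale (median 0.08). The 327 vomeronasal receptor genes, in 51 bins, were at 0.0257 and 0.0401, with 254 higher and 42 lower (median 0.41). The median levels of both families were under the 5th percentile of all bins, 0.0352 in cerebellum and 0.0642 in bulb. The paper puts 5hmC outside gene bodies within the error of TAB-seq, and the part of background in these relative changes was not tested. Of 358 zinc finger genes named Zfp, in 170 bins, 316 were higher and 29 lower (median 0.33). The 39 Hox genes lie in 5 bins, with 20 higher and 9 lower (median 0.11), and the 110 keratin genes in 9 bins, with 61 higher and 49 lower (median 0.12). In such clusters the count of genes is a count of few bins.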

How the data were processed

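TAB-seq (5hmC) and oxBS-seq (5mC) libraries were prepared from genomic DNA of dissected tissues. Reads were aligned to mm10 with Bismark, and the values deposited by the authors are a fraction for every bin and library, between 0 and 1 (1 Mb bins for 5hmC, 100 kb bins for 5mC), without counts or coverage. How sites were combined into a bin is not given in the sources used here, and incomplete conversion was not corrected here. The last bin of each chromosome reached or passed the chromosome's end in GRCm38, except on chromosomes 3, 11, 15 and X, where under 100 kb was left over.

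Libraries were grouped by the labels. The members and gene lists were chosen with earlier results of these data known. The 5mC bins were averaged without weights into 1 Mb bins. Bins at 0 were left out, and 2581 bins were fitted with limma 3.58.1 (R 4.3.3), 9 TAB-seq or 7 oxBS-seq libraries per fit, contrast cerebellum minus olfactory bulb, Benjamini-Hochberg adjustment, threshold 0.05. No pseudocount was used. For the level and 5mC fits limma estimated the same standard error in all bins. Genes (GENCODE M21) took the overlap-weighted mean of their bins. Single values per library were compared by two-sided exact permutation tests. Python 3.11.15, numpy 2.4.6, pandas 2.3.3, scipy 1.17.1 and matplotlib 3.10.9 did the rest.

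The named bins were the 5 largest rises and 5 largest falls on each scale among called bins without overlap between libraries (for the relative scale, overlap of the relative levels). Named too were the 3 longest runs in each direction, the 8 largest rises and 8 largest falls among genes of at least 500 kb, and the 2 highest and 2 lowest genes of a list (all genes of the granule neuron, Purkinje cell, bulb interneuron and 5mC lists). The 2 sequence windows for the level scale, the other bins of the 30 higher by level and further list members were named after their values were seen. Some genes that the rule names are not reported here. Alternatives were other scales, limits on low values, limma options, only the 6 libraries compared, the replicate block and leaving out each library. The fit was tested on simulated data. In 2581 bins, a change of 0.5 was found in 98.5% of 200 changed bins by level and in 100% on the relative scale, and a change of 0.2 in 15% and 89.5%. False calls among the unchanged bins were 18 by level and 6 on the relative scale at 0.5, and 3 and 7 at 0.2. At a change of 1 they were 9 and 17. Noise was drawn separately for each bin, so shifts of a whole library were not simulated.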

Additional observations from a re-analysis of the deposited data

How the results depend on the processing

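The counts of bins and genes called on the level and relative scales stayed within 1.5 times their values in every alternative. The 30 bins higher by level became 24 to 38 when single libraries were left out. With the level minus the library median as fractions, the relative calls were 1259 higher and 847 lower. The count for 5mC was less stable, from 699 to 1437 in all (592 to 1374 higher, 60 to 107 lower) with single libraries left out, in fits where the lone library of a tissue was assumed to vary like the others. The contrast by cortex level turned from 0.27 to -0.0205 on the fraction scale. With single libraries left out, Etv1 ranged from -0.0338 to 0.00985 (without cerebellum replicate 3) and Calb1 from -0.0390 to 0.0109 (without cerebellum replicate 1). Opalin no longer passed in 3 alternatives. Whether the replicate numbers pair the samples is not known. Deviations of same-numbered libraries had r = 0.346, 0.388 and -0.0091, without libraries of different numbers to compare them with. With the replicate number as a block, 2260 bins were called by level, 2192 on the relative scale and 1791 for 5mC, and 19227 genes. For 5mC the numbers are those of the labels, and the library names number the bulb and cerebellum libraries differently, so this block may join different mice. The causes were not tested. A coverage minimum could not be applied, as the values carry no coverage. In simulated data, where only 200 of 2581 bins were changed, a change of 0.2 was found in 15% of these bins by level. In the real data 93% of the bins were called, which makes the adjustment less strict. The Nlrp9b bin, for example, was called by level at 0.151 (limma adjusted p = 0.0427). The simulated share therefore cannot give the smallest change within reach of the real fit.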

Other observations

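The X chromosome was left out of the members. Over its 168 bins with a level above 0, 5hmC was 0.0402 ± 0.00149 in cerebellum and 0.0646 ± 0.00328 in olfactory bulb (SD, n = 3), which is 62.2% of bulb. By level, 151 of these bins were lower and 1 was higher in limma, and relative to the autosomal median of each library 60 were higher and 72 lower. The mean relative change of the X bins was -0.01 ± 0.054 (SE), less than its error.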
